A study of Homo sapiens with 12 samples.

Results

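Kinesins are motor proteins that walk along microtubules or take their ends apart, and the genes of this family are the subject here. A gene of the count table belonged to the family when its symbol was KIF followed by a number and, where present, a letter from A to C, and 39 of 59251 genes did. The RNA was taken from HL60 cells, a line of human myeloid leukemia cells grown in RPMI1640 with fetal bovine serum, and the 4 groups held 3 libraries each that the labels call biological replicates. Non-treated cells (NT) received neither drug. ATRA-treated cells received 1 µM all-trans retinoic acid, a ligand of the retinoic acid receptors that drives HL60 cells toward granulocytes. CDK4/6i-treated cells received 1 µM palbociclib, an inhibitor of the kinases CDK4 and CDK6 that start the passage from G1 into S phase. CDK4/6i+ATRA-treated cells received 1 µM of each, and every treatment lasted 48 h. All groups come from 1 cell line, so the spread between libraries is that between cultures of this line.

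The family falls into groups by the work its members do. Mitotic kinesins build the spindle, align chromosomes and organise the midzone at cytokinesis, and their mRNAs are known to peak in G2 and M phase in cycling cells. Transport kinesins carry mitochondria, lysosomes, endosomes and vesicles toward the cell edge and work in cycling and resting cells alike. A smaller group works in or at the base of the primary cilium. Of the 39 genes, 13 were classed as mitotic, 15 as transport, 5 as cilium and 6 as other kinesins, from general knowledge of their function.

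Levels are given as CPM, the count of a gene scaled to a common library total with edgeR's TMM factors, as mean ± SD with n = 3. Library totals ranged from 12230923 to 18679544 counts and the TMM factors from 0.840 to 1.07, with both lowest values in the CDK4/6i+ATRA group. Scaling by library size alone would move the median of all log2 fold changes, otherwise near 0, to -0.25 against NT, -0.28 against CDK4/6i, -0.26 against ATRA and -0.34 in the interaction. The myeloid markers MPO, CTSG, CD33, SPI1 and CSF3R were present, and with both drugs 2 were called higher than in NT, 2 lower and 1 was not called. MPO went from 6517 to 28.0 CPM and CTSG from 14.0 to 0.638 CPM, whereas SPI1 went from 302 to 855 CPM and CSF3R from 38.8 to 116 CPM, and CD33 stood at 93.9 and 99.8 CPM. The granule protease genes ELANE, AZU1 and PRTN3 were listed at 0 in all 12 libraries, and the table places each of them on an alternate contig as well as on its chromosome. Markers of other lineages summed to 41.0 to 45.7 CPM in NT and 29.4 to 31.8 CPM in CDK4/6i+ATRA, and 9 of 15 were at 0 in both groups. The part of these markers in the kinesin results was not tested.

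The promoters of the mitotic kinesins are shown first because these genes moved together. The cell cycle genes homology region (CHR) is the element through which the DREAM complex and MuvB proteins are known to act on G2/M genes, often together with a CCAAT box bound by NF-Y, while E2F sites are found in many G1/S genes. The CHR was searched as TTTGAA or TTCGAA, the CCAAT box as CCAAT and the E2F site as TTTGGCGC, TTTCCCGC, TTTGGCGG or TTTCGCGC, on both strands, in the RefSeq promoter windows of GRCh38.p14 that span 250 bases before to 50 bases after a start site. Of the 27 members that passed the expression filter, 24 had a window, including 11 mitotic and 9 transport kinesins. A gene with several listed starts was counted once. Each sequence below runs 5′ to 3′ along the strand of its gene from 70 bases before the start site to the 10th base after it, and capitals mark the matches, which read ATTGG or TTCAAA where the motif lies on the opposite strand. The mitotic kinesins KIF11 (chr10:92593060-92593139, plus strand), KIF4A (chrX:70290034-70290113, plus), KIF18A (chr11:28108147-28108226, minus), KIF14 (chr1:200620742-200620821, minus), KIF18B (chr17:44947764-44947843, minus) and KIF23 (chr15:69414279-69414358, plus) carry both motifs close to the start.
KIF11: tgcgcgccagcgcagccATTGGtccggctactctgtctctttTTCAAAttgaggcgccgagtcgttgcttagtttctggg
KIF4A: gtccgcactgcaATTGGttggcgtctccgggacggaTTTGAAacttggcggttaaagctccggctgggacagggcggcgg
KIF18A: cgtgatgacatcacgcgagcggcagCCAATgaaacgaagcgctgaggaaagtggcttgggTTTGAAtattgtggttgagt
KIF14: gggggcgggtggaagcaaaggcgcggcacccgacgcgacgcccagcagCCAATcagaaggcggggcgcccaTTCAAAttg
KIF18B: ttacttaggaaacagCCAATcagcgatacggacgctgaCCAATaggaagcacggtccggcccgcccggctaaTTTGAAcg
KIF23: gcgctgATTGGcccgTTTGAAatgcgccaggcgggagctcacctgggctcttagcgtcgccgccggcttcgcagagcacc
The mitotic kinesins KIF15 (chr3:44761724-44761803, plus), KIF20A (chr5:138179042-138179121, plus) and KIF2C (chr1:44739767-44739846, plus) differ from them. KIF15 has an E2F match directly before its CHR match and no CCAAT box, KIF20A has CCAAT boxes and no CHR match, and KIF2C has neither.
KIF15: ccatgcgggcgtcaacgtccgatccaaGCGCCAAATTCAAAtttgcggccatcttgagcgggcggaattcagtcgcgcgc
KIF20A: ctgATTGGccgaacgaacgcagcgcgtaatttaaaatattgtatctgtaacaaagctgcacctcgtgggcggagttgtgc
KIF2C: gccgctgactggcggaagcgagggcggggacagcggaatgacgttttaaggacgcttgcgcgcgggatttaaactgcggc
The transport kinesins KIF5B (chr10:32056416-32056495, minus) and KIF3C (chr2:25982488-25982567, minus) are shown for comparison.
KIF5B: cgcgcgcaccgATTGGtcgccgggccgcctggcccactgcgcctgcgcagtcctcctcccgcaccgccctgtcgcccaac
KIF3C: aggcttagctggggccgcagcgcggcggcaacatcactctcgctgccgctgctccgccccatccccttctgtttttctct

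A CHR match lay in the window of 9 of the 11 mitotic kinesins and of 1 of the 9 transport kinesins, against 19.5% of all 27305 genes with a window and 16.1% of the 9788 that were tested for expression. A CCAAT box lay in 9 of 11 mitotic and 4 of 9 transport windows, against 39.7% of all genes and 43.1% of those tested. CHR and CCAAT together were found in 8 of 11 mitotic kinesins and in KIF5B among the transport kinesins, against 7.85% of all genes and 6.83% of those tested. Among the other kinesins KIF24 held both motifs and KIF2A neither, and the 2 cilium kinesins with a window held neither. The CHR match of KIF5B lies farther from the start, at bases -140 to -135, and that of KIF11 at bases -28 to -23. E2F matches were rarer, in 2 of 11 mitotic windows (KIF11 and KIF15), in 0 of 9 transport windows, in 4.05% of all genes and in 6.92% of those tested. A match is a run of letters and not a measured binding site.

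**Figure D1:**
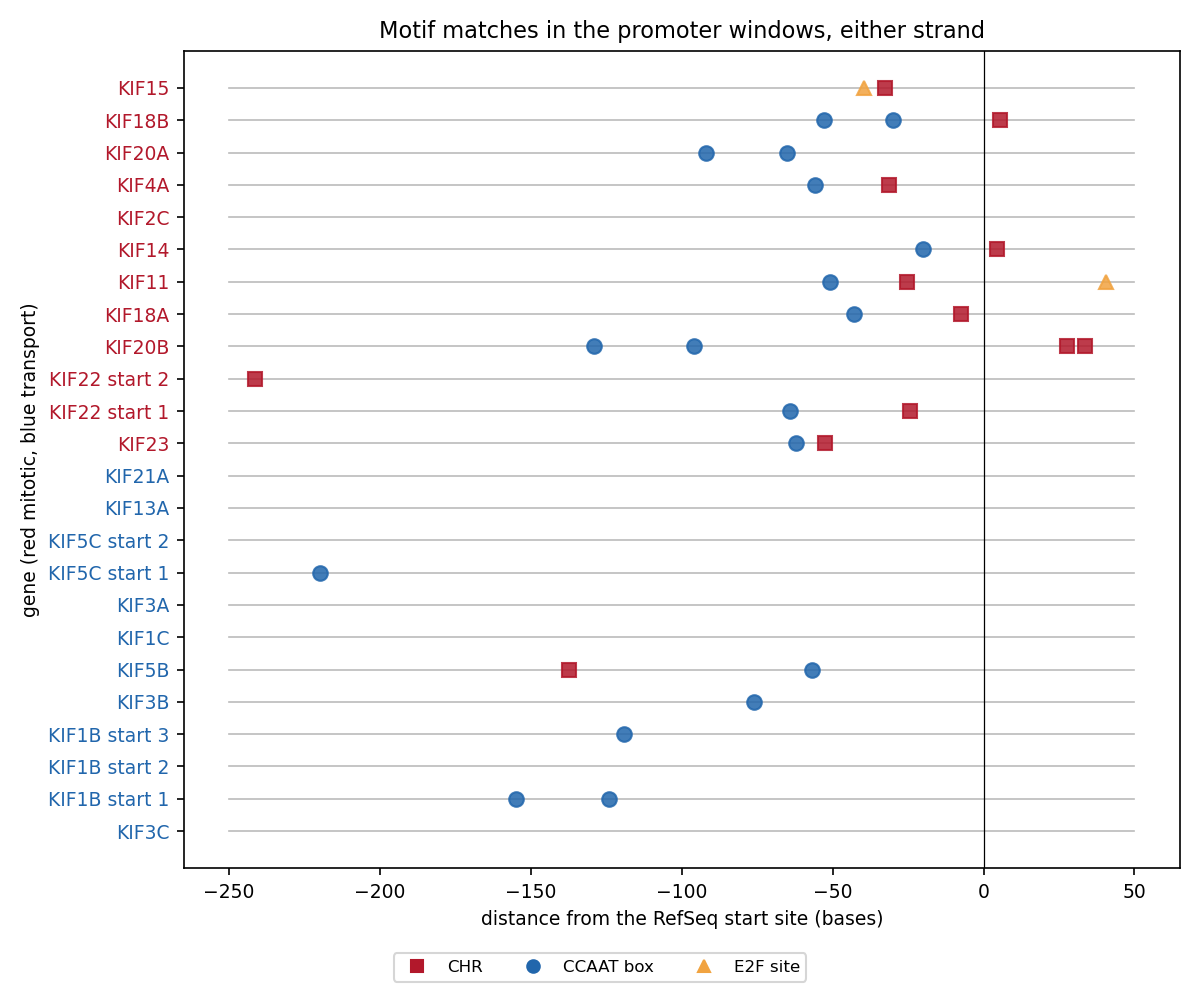
Positions of the motif matches in the promoter windows of mitotic (red) and transport (blue) kinesins that passed the filter, in bases from the RefSeq start site, on either strand. Each grey line is 1 window and each marker the middle of 1 match, with squares for the CHR, circles for the CCAAT box and triangles for the E2F site. Squares appear on the lines of 9 of 11 mitotic kinesins and, among transport kinesins, on that of KIF5B alone.

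Before the drugs, mitotic kinesins made up most of the kinesin mRNA. Summed per kilobase of exon, mitotic kinesins reached 242 ± 2.37 CPM per kilobase in NT, which was 72.9% ± 0.209 of the sum over all 39 genes. Transport kinesins reached 73.4 ± 0.444 CPM per kilobase, or 22.1% ± 0.251. The sums use the exon length on the primary chromosome. For KIF15 and KIF5C, part of the exons is also listed on patch or alternate contigs, so both are left out of the order that follows, and any loss of reads from them was not tested. The highest levels per kilobase in NT belonged to KIF2C (52.8 CPM per kilobase), KIF11 (42.4), KIF5B (41.2) and KIF22 (35.3), where KIF11 and KIF5B are neighbours within 1 SD of KIF11 (1.52). KIF2C takes microtubule ends apart at centromeres to release wrong attachments, KIF11 slides antiparallel microtubules to make the spindle bipolar, KIF22 is a motor on chromosome arms, and KIF5B is the conventional kinesin heavy chain of most cells.

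The balance between the classes was turned over with CDK4/6i alone and shifted further with both drugs. The mitotic sum was 314 ± 5.74 CPM per kilobase with ATRA, 42.3 ± 2.55 with CDK4/6i and 16.3 ± 0.339 with both drugs. The transport sum was 125 ± 0.948, 73.9 ± 1.59 and 130 ± 2.02 CPM per kilobase in the same order. KIF5B alone made up most of the transport sum in every group, with 41.2 CPM per kilobase in NT, 73.4 with ATRA, 40.7 with CDK4/6i and 84.3 with both drugs. As a share of all kinesin mRNA per kilobase, the mitotic class went from 72.9% in NT to 69.6% with ATRA, 32.9% with CDK4/6i and 10.7% with both drugs, and the transport class from 22.1% to 27.7%, 57.6% and 85.4%. In CDK4/6i+ATRA-treated cells the 4 highest levels per kilobase were those of KIF5B (84.3), KIF21B (19.3), KIF3B (9.27) and KIF3C (6.57), all transport kinesins, and KIF2C had gone from first to 11th of 25. In a bulk sample, fewer dividing cells and less mRNA per dividing cell cannot be told apart. Sums over genes were not tested.

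**Figure D2:**
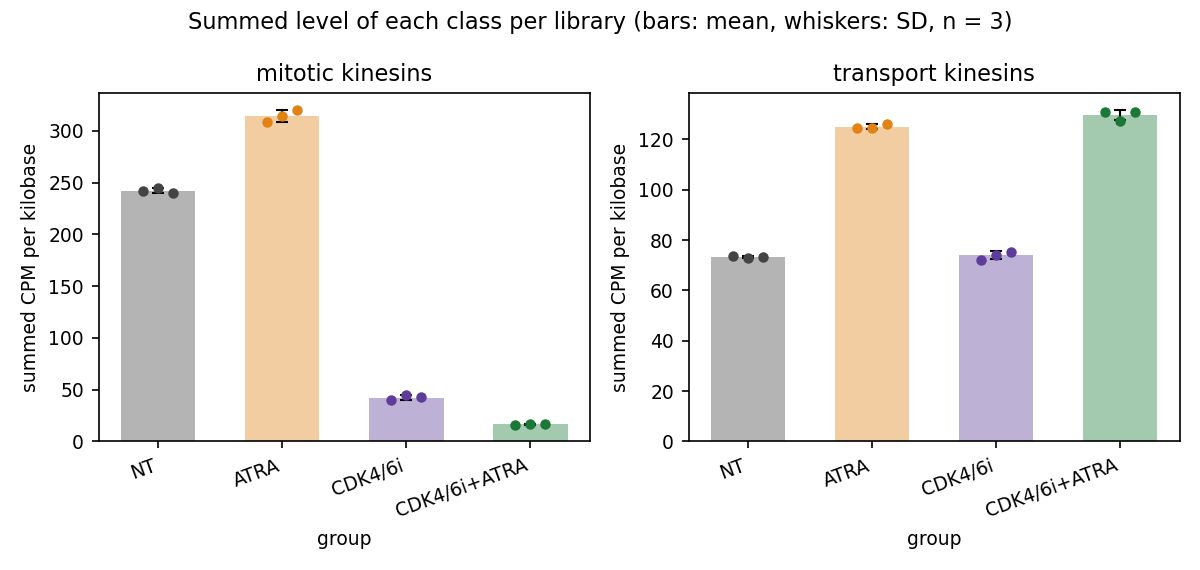
Summed level of the mitotic kinesins (left) and the transport kinesins (right) in CPM per kilobase of exon, by group. Bars give the mean of 3 libraries, whiskers the SD and points the libraries. The mitotic sum lies between 240 and 245 in NT libraries and between 15.9 and 16.6 in CDK4/6i+ATRA libraries, whereas the transport sum lies between 72.2 and 75.3 in NT and CDK4/6i and between 124 and 131 in both groups with ATRA.

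Of the 39 members, 27 passed the expression filter. They were 11 mitotic, 11 transport, 3 cilium and 2 other kinesins. KIF2B, KIF5A, KIF12, KIF16B, KIF19 and KIF25 had no count in any library, as had 31154 genes of the table. KIF6, KIF26A and KIF26B had 1 count each over all 12 libraries, KIF1A had 42 and KIF17 had 53. The exons of KIF26B are also listed on other contigs, as for KIF15 and KIF5C, and any loss of its reads was not tested. KIF4B, a copy of KIF4A without introns whose reads could have been shared with it, had 17, of which 11 fell in NT, 6 in ATRA and 0 in either group with CDK4/6i. Differences were tested with the quasi-likelihood F test of edgeR, p-values were adjusted by the Benjamini-Hochberg method over 13318 genes, and an adjusted p under 0.05 counted as a change. Adjusted p-values come from this test unless another setting is named beside them.

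ATRA alone raised most mitotic kinesins a little. Relative to NT, 9 of 11 tested mitotic kinesins were called higher with ATRA and 0 lower, where 32.1% of all tested genes were higher and 35.5% lower, and the median log2 fold change was 0.50 against -0.03 over all tested genes. With KIF2A and KIF24 counted as mitotic the median was 0.24, with 1 called lower. KIF23, the motor subunit of the centralspindlin complex at the midzone, stood at 83.1, 87.5 and 81.4 CPM in NT and at 142, 140 and 134 CPM with ATRA. All ATRA libraries of KIF23 lay above all NT libraries, and the log2 fold change was 0.73 ± 0.04 (SE, adjusted p = 5.85e-20). KIF14 and KIF20A, both needed for cytokinesis, rose by 0.67 on the log2 scale, KIF4A by 0.52 and KIF11 by 0.50. KIF18A, which damps the movements of chromosomes at the metaphase plate, also rose by 0.50. Smaller rises were called for KIF18B (0.22), KIF2C (0.20) and KIF22 (0.17). KIF15, a second motor for spindle bipolarity, had a log2 fold change of 0.05 (95% interval -0.06 to 0.15). KIF20B, another cytokinesis motor, had one of 0.10 (adjusted p = 0.0697), but was called higher without NT replicate 3 (0.13, adjusted p = 0.0278) and in 5 other settings, with values of 0.12 to 0.15 and adjusted p-values of 0.00149 (only the groups compared) to 0.0421 (DESeq2 in place of edgeR).

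CDK4/6i alone lowered every tested mitotic kinesin, but by very different amounts. All 11 were called lower than in NT and 0 higher, where 27.9% of all tested genes were lower and 28.3% higher, and the median log2 fold change was -3.19. KIF20A carries the chromosomal passenger complex to the spindle midzone and fell the most. Its level was 39.5, 42.9 and 41.3 CPM in NT and 0.830, 1.34 and 0.878 CPM with CDK4/6i, a log2 fold change of -5.35 ± 0.13 (adjusted p = 1.27e-36) or 40.7-fold. KIF18B, which shortens astral microtubules with KIF2C, and KIF4A, a chromosome-bound motor that also sets midzone length with PRC1, followed with -4.33 ± 0.11 and -4.26 ± 0.08. KIF15, KIF2C and KIF11 formed the next set, at -3.35, -3.34 and -3.19. At the other end, KIF20B fell by 1.24 ± 0.05 on the log2 scale, from 116 ± 4.95 to 49.0 ± 4.72 CPM, and KIF22 and KIF23 by 1.58 and 1.63. KIF20A and KIF20B belong to the same kinesin-6 subfamily and are here the largest and the smallest fall. KIF14 fell by 2.81 and KIF18A by 1.95.

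With both drugs the mitotic kinesins fell furthest. All 11 were called lower than in NT and 0 higher, where 40.7% of all tested genes were lower and 41% higher, with log2 fold changes from -6.29 to -1.88 and a median of -5.13. KIF11 stood at 218, 215 and 204 CPM in NT, at 290, 307 and 302 CPM with ATRA, at 23.0, 22.9 and 24.0 CPM with CDK4/6i and at 5.77, 6.69 and 6.45 CPM with both drugs. The 4 groups of KIF11 did not overlap, and its log2 fold change with both drugs was -5.07 ± 0.07 (adjusted p = 2.83e-48), a 33.6-fold fall. KIF15 fell 78.4-fold, from 71.6 ± 2.54 to 0.907 ± 0.141 CPM, and KIF18B 78.2-fold, from 50.9 ± 0.785 to 0.641 ± 0.173 CPM. These lowest levels rest on few reads, since 3 counts correspond to 0.248 to 0.275 CPM in the CDK4/6i+ATRA libraries. KIF20A fell 60.7-fold to 0.669 ± 0.104 CPM, KIF4A 40.1-fold to 2.02 ± 0.722 CPM, KIF2C 38.8-fold to 4.42 ± 0.706 CPM and KIF14 35.1-fold to 3.16 ± 0.406 CPM. KIF18A fell 29.6-fold and KIF20B 17.6-fold. KIF22 and KIF23 kept more of their mRNA than the other 9, with falls of 6.50-fold and 3.69-fold to 16.7 ± 0.567 and 22.8 ± 0.521 CPM, the highest mitotic levels in this group.

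Set against CDK4/6i alone, the combination lowered 10 of 11 mitotic kinesins further. The median log2 fold change was -1.94, where 39.5% of all tested genes were called lower and 39.1% higher. By library size alone the share of all calls that were higher would be 36.7% in place of 49.8%. KIF15 and KIF18A fell by 2.94 each and KIF20B by 2.89 ± 0.09 (adjusted p = 2.88e-32). KIF20B stood at 45.0, 54.2 and 47.9 CPM with CDK4/6i and at 6.14, 6.42 and 7.11 CPM with both drugs. The gene that CDK4/6i alone lowered least among the mitotic kinesins was thus among the 3 that the second drug lowered most. KIF23 fell by 0.26 ± 0.07 (adjusted p = 0.00097), the smallest call. KIF20A was not called, at -0.58 (95% interval -1.28 to 0.13), with its 3 CDK4/6i+ATRA libraries at 0.550, 0.713 and 0.744 CPM, and was called with scaling by library size alone (-0.85, adjusted p = 0.0254). Against ATRA alone all 11 were called lower, with a median of -5.57, where 32.8% of all tested genes were lower and 36.9% higher and where the share of calls that were higher would be 31.6% by library size alone in place of 53%.

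**Figure D3:**
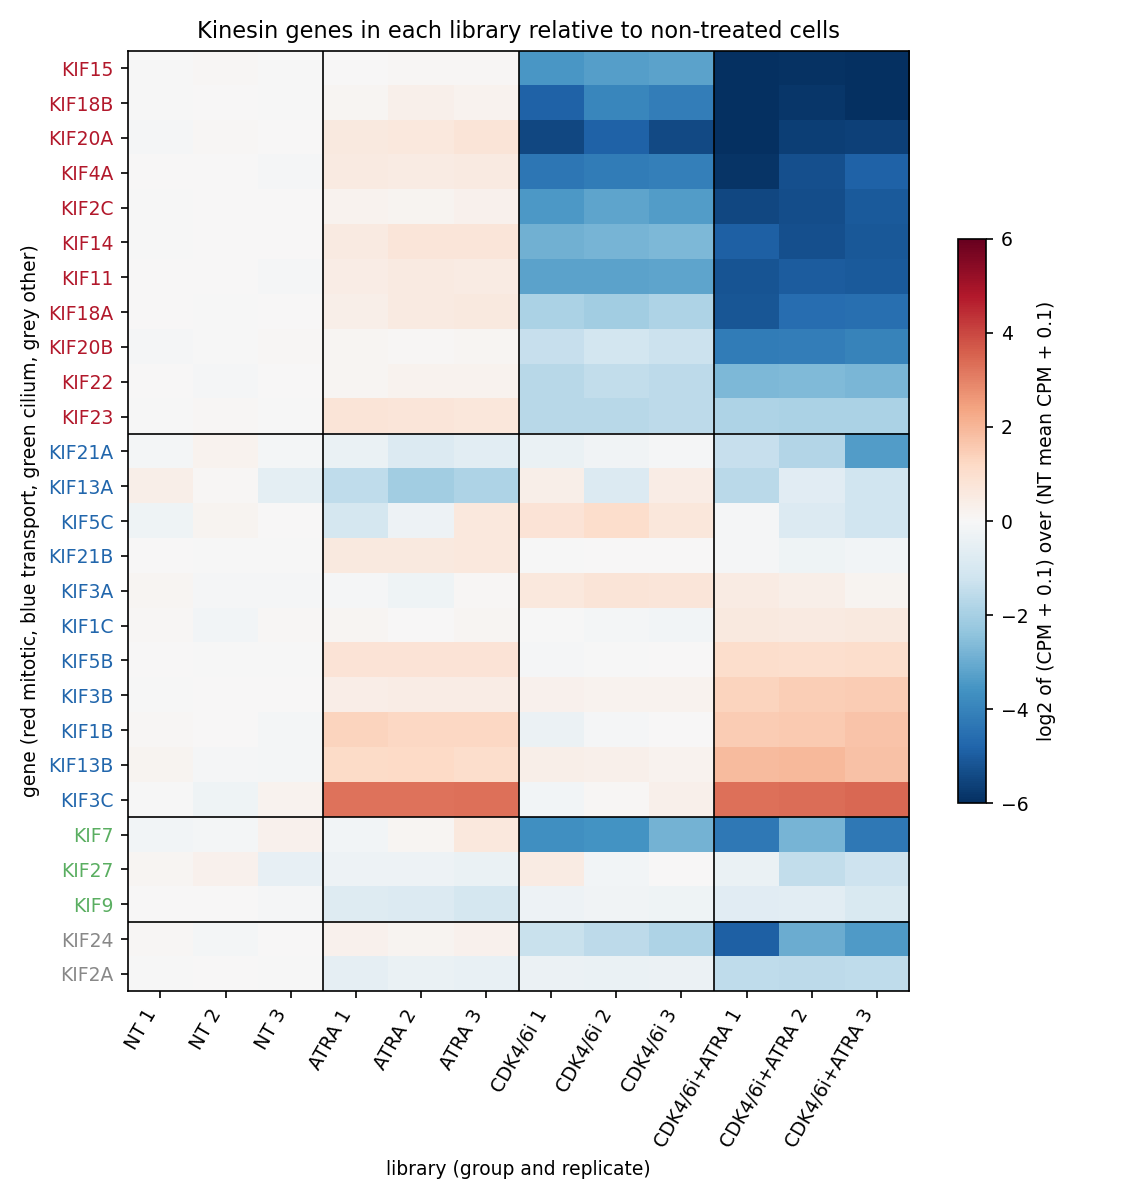
Level of 27 kinesin genes (rows, coloured by class) in each of 12 libraries (columns), as log2 of (CPM + 0.1) over (NT mean CPM + 0.1), with values beyond 6 drawn in the end colours. Rows are ordered within a class by the log2 fold change of CDK4/6i+ATRA against NT. The 11 mitotic rows are pale red or white with ATRA and blue in both groups with CDK4/6i. KIF3C, KIF13B and KIF1B are red in both groups with ATRA, while KIF3B and KIF5B are pale red with ATRA alone and red with both drugs.

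Of the single drugs, ATRA gave more calls among the transport kinesins than CDK4/6i. With ATRA alone, 6 of 11 tested transport kinesins were called higher and 2 lower than in NT, with a median log2 fold change of 0.44. Among the 8 with at least 10 counts in every library the median was 0.75 and 0 were lower. That filter removes KIF13A and KIF21A, the 2 called lower, so the absence of lower calls follows from it. With CDK4/6i alone, 3 were called higher, 0 lower and 8 not called, with a median of 0.08 against 0.02 over all tested genes. That median turned to -0.03 without CDK4/6i replicate 3 and to just below 0 without NT replicate 3, and was 0.02 without CDK4/6i replicate 1 and 0.16 without CDK4/6i replicate 2. With both drugs, 7 were called higher, 3 lower and 1 not called, with a median of 0.57. That median was 0.31 by library size alone, 0.24 over the 13 left without a filter, 1.28 over the 8 with at least 10 counts in every library and 1.03 without KIF17, KIF21A and KIF21B, and 1 was lower in each of the last 2 settings. The 3 of 11 higher with CDK4/6i are near the 28.3% of all tested genes, and the 6 and 7 of 11 are somewhat above the 32.1% and 41% of all tested genes in their comparisons. The lower calls, 2, 0 and 3 of 11 in the order ATRA, CDK4/6i and both drugs, stand beside 35.5%, 27.9% and 40.7% of all tested genes.

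KIF3C had the largest rise among the tested members. It is a partner of KIF3A in a form of the heterotrimeric kinesin-2 motor. KIF3C stood at 3.25, 2.76 and 3.83 CPM in NT, at 2.90, 3.48 and 4.10 CPM with CDK4/6i, at 32.0, 32.4 and 33.1 CPM with ATRA and at 33.7, 34.9 and 36.7 CPM with both drugs. The libraries fell into a low and a high pair of groups that did not overlap and that differed by the presence of ATRA. The log2 fold change was 3.30 ± 0.11 with ATRA (adjusted p = 1.47e-30) and 3.41 ± 0.11 with both drugs (adjusted p = 3.13e-31). With CDK4/6i alone it was 0.08 (95% interval -0.25 to 0.41). Between both drugs and ATRA alone it was 0.11 (95% interval -0.05 to 0.27), a difference that turned to -0.20 (adjusted p = 0.0296) with scaling by library size alone.

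The other subunits of kinesin-2 moved differently. KIF3B, the second partner of KIF3A, rose by 0.44 with ATRA and by 0.25 with CDK4/6i and stood at 86.9, 93.3 and 99.3 CPM with both drugs against 33.5, 34.2 and 34.2 CPM in NT. That is a log2 fold change of 1.46 ± 0.06 (adjusted p = 1.64e-28). KIF3A itself was low, at 5.42 ± 0.407 CPM in NT, rose by 0.71 with CDK4/6i (adjusted p = 1.69e-05) and by 0.35 with both drugs (adjusted p = 0.0351). The second call was lost without NT replicate 2 (0.30), NT replicate 3 (0.31), CDK4/6i+ATRA replicate 1 (0.27) or CDK4/6i+ATRA replicate 2 (0.33). It was also lost with library size alone (0.08) and without a filter (0.24). The accessory subunit KIFAP3 had a log2 fold change of -0.27 with both drugs (adjusted p = 0.0513). Per kilobase of exon, the level of KIF3C over that of KIF3A was 0.821 ± 0.147 in NT, 0.532 ± 0.0758 with CDK4/6i, 8.68 ± 0.98 with ATRA and 6.94 ± 1.08 with both drugs. KIF3B was above KIF3A in every library, with mean ratios of 3.27 to 9.82. The ratio of KIF3C to KIF3B went from 0.182 ± 0.0296 in NT to 1.33 ± 0.0084 with ATRA and 0.709 ± 0.0186 with both drugs.

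KIF5B was the most abundant kinesin per kilobase in all 3 treated groups. Its libraries stood at 252, 249 and 250.4 CPM in NT, at 446, 447 and 448 CPM with ATRA, at 242, 247 and 254 CPM with CDK4/6i and at 517, 505 and 517 CPM with both drugs. The log2 fold change was 0.83 ± 0.04 with ATRA (adjusted p = 3.07e-26) and 1.03 ± 0.04 with both drugs (adjusted p = 1.91e-30), or 2.05-fold. With CDK4/6i alone it was -0.02 (95% interval -0.09 to 0.06). The difference of 0.20 between both drugs and ATRA alone turned to -0.11 (adjusted p = 0.00425) with scaling by library size alone, and was not called without a filter (0.11, adjusted p = 0.0528). KIF5C, a related heavy chain known mainly from neurons, stayed between 0.534 and 1.65 mean CPM. It was called higher with CDK4/6i (0.91, adjusted p = 0.031). That call was lost without NT replicate 1 (0.79) or 3 (0.94) and without CDK4/6i replicate 1 (0.93) or 2 (0.81), and also with DESeq2 in place of edgeR (0.93).

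Among the vesicle motors, KIF1B and KIF13B rose with ATRA and with both drugs. KIF1B, which carries mitochondria and vesicle precursors, stood at 12.9, 12.7 and 11.4 CPM in NT, at 31.0, 28.9 and 28.9 CPM with ATRA and at 35.8, 36.5 and 40.1 CPM with both drugs. Its log2 fold changes were 1.26 ± 0.09 (adjusted p = 5.68e-18) and 1.60 ± 0.09 (adjusted p = 4.52e-22). Between both drugs and ATRA alone KIF1B differed by 0.34 (adjusted p = 0.00014), a call lost by library size alone (0.035, adjusted p = 0.704). KIF13B rose from 5.53 ± 0.578 to 12.3 ± 0.535 CPM with ATRA and 20.4 ± 1.15 CPM with both drugs, log2 fold changes of 1.15 and 1.88. Its difference of 0.73 between both drugs and ATRA alone was called by library size alone as well (0.42, adjusted p = 0.00044). With CDK4/6i alone KIF13B was not called (0.30, adjusted p = 0.0513), but was without NT replicate 1 (0.39) or CDK4/6i replicate 3 (0.34), and with DESeq2 size factors (0.30), library size alone (0.31) or at least 10 counts in every library (0.30). Its relative KIF13A, a motor of recycling endosomes, went the other way and had a mean of 1.14 CPM at most. It fell by 2.14 ± 0.51 with ATRA (adjusted p = 0.000222) and by 1.25 ± 0.49 with both drugs (adjusted p = 0.0185), the latter lost without NT replicate 1 (-1.03), CDK4/6i+ATRA replicate 1 (-1.03) or CDK4/6i+ATRA replicate 3 (-1.21). KIF1C, a motor of vesicles and the Golgi, was not called with either drug alone (0.08 with ATRA and -0.10 with CDK4/6i) and rose by 0.57 ± 0.08 with both (adjusted p = 3.51e-09), from 22.6 ± 1.93 to 33.7 ± 0.45 CPM.

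KIF21A and KIF21B, which slow microtubule growth at the cell edge, were both lower with both drugs than in NT. KIF21B stood at 220, 218 and 218 CPM in NT and at 328, 330.5 and 340 CPM with ATRA, a rise of 0.61 ± 0.04 (adjusted p = 8.06e-20). With CDK4/6i it stood at 212, 223 and 221 CPM, a range that takes in the NT libraries. With both drugs it stood at 206, 184 and 194 CPM, below NT (-0.17 ± 0.04, adjusted p = 0.000161). KIF21A fell by 0.63 with ATRA and by 2.01 ± 0.23 with both drugs (adjusted p = 6.75e-11), from 7.71 ± 1.03 to 1.94 ± 1.16 CPM, although its 3 CDK4/6i+ATRA libraries spread from 0.661 to 2.93 CPM. KIF21B lies on chromosome 1 (200969390 to 201023714, minus strand, hg38), 349 kb from the mitotic KIF14 (200551497 to 200620751, minus strand), which fell 35.1-fold with both drugs.

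Against CDK4/6i alone, 6 of 11 transport kinesins were called higher with both drugs and 5 lower, where 39.1% of all tested genes were higher and 39.5% lower. The median of 0.67 turned to -0.27 over the 13 left without a filter and was 0.39 by library size alone, 1.16 over the 8 with at least 10 counts in every library, with 2 lower, and 1.05 without KIF17, KIF21A and KIF21B, with 3 lower. It was 0.24 without NT replicate 2, 0.25 without CDK4/6i replicate 2, and 0.23, 0.27 and 0.25 without CDK4/6i+ATRA replicate 1, 2 and 3. Of the lower calls KIF13A was lost without CDK4/6i+ATRA replicate 1 (-1.15) and KIF3A without CDK4/6i+ATRA replicate 3 (-0.28). Against ATRA alone, 6 of 11 were called higher and 2 lower, where 36.9% of all tested genes were higher and 32.8% lower, at a median of 0.34. By library size alone 3 were higher and 4 lower, at a median of 0.035. The median was 0.20 with only the groups compared, and the lower calls were 1 with at least 10 counts in every library and 0 without KIF17, KIF21A and KIF21B. The call of KIF3A (0.43) was lost without ATRA replicate 2 (0.34) or CDK4/6i+ATRA replicate 1 (0.36), by library size alone (0.12) and without a filter (0.33).

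**Figure D4:**
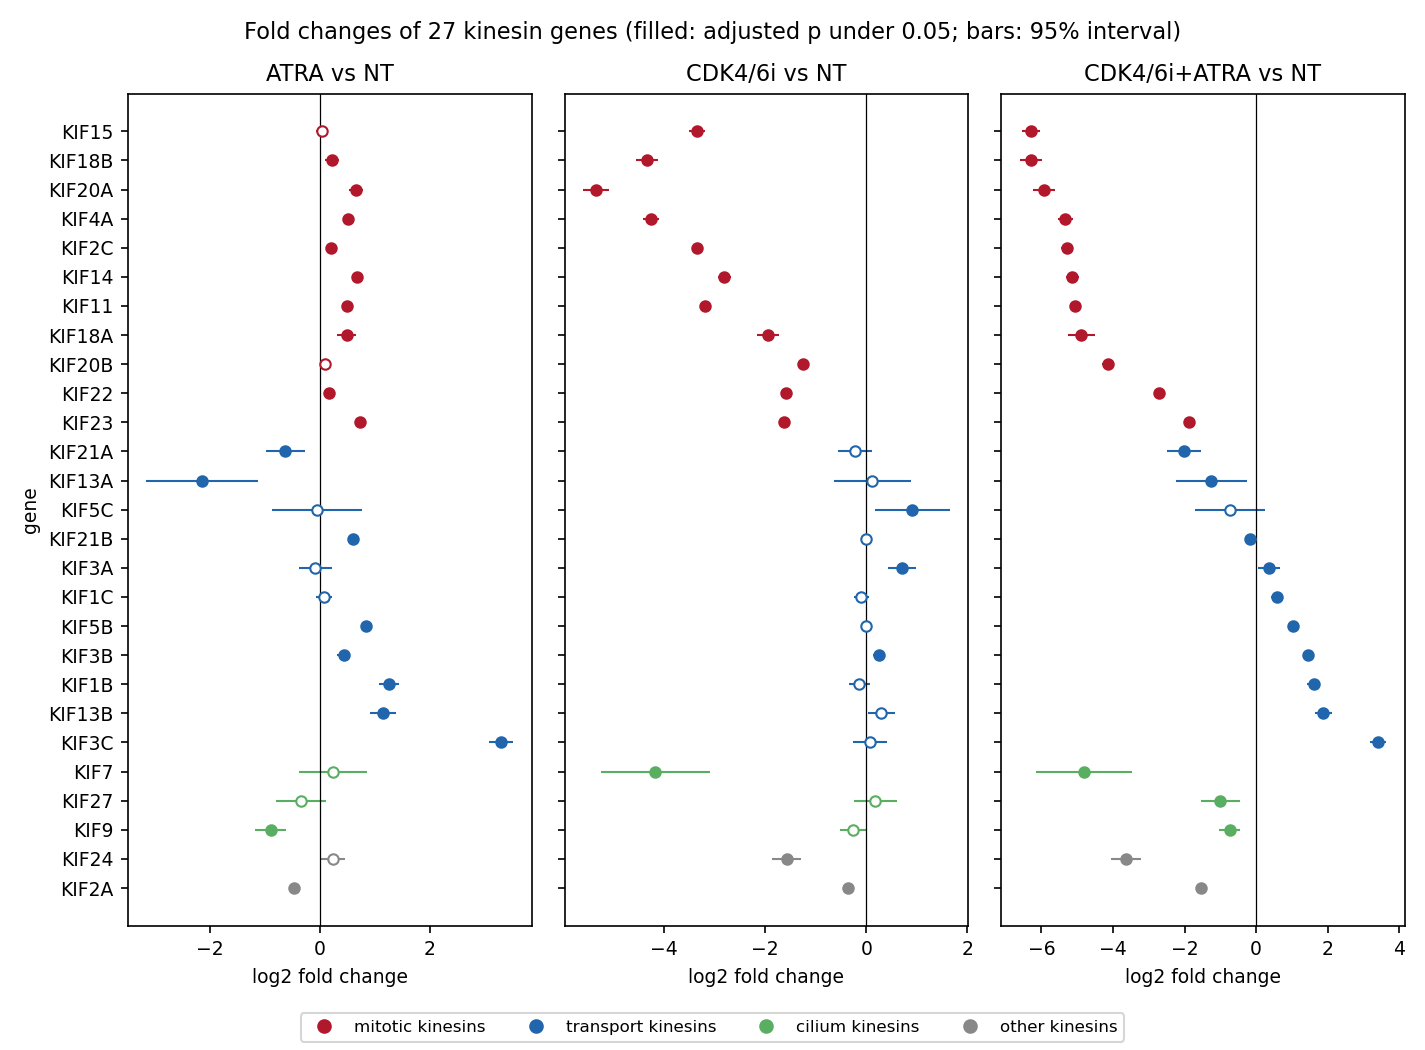
Log2 fold change against NT of 27 kinesin genes, drawn for ATRA (left), CDK4/6i (middle) and both drugs (right), with 95% intervals, where filled points have an adjusted p under 0.05. Red points are mitotic, blue transport, green cilium and grey other kinesins, and the 3 axes differ in range. The 11 mitotic genes lie at or right of 0 with ATRA and left of 0 in the other 2 panels, from -5.35 to -1.24 and from -6.29 to -1.88.

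The remaining 5 tested members, 3 cilium and 2 other kinesins, were all called lower with both drugs than in NT, where 40.7% of all tested genes were. KIF24, a microtubule depolymerase of the mother centriole, moved in the same directions as the mitotic kinesins, with 13.8 ± 0.869 CPM in NT, 4.61 ± 0.876 CPM with CDK4/6i and 1.10 ± 0.674 CPM with both drugs. Its log2 fold changes were -1.58 ± 0.14 (adjusted p = 5.01e-14) and -3.63 ± 0.21 (adjusted p = 1.69e-21). With ATRA it was not called (0.24, adjusted p = 0.0656), but was without CDK4/6i+ATRA replicate 1 (0.24, adjusted p = 0.0391), with DESeq2 size factors (0.27, adjusted p = 0.0357), by library size alone (0.28, adjusted p = 0.0373) and with only the groups compared (0.29, adjusted p = 0.00593). Exons of KIF24 share 144 bases with UBAP1 on the opposite strand, those of KIF7 share 91 bases with TICRR and those of KIF20A share 74 bases with CDC23. KIF2A takes microtubules apart like KIF2C but works in interphase cells as well as at spindle poles. KIF2A fell in each comparison with NT, by 0.47 with ATRA, 0.36 with CDK4/6i and 1.55 ± 0.05 with both drugs (adjusted p = 3.39e-30), from 101 ± 2.17 to 34.6 ± 0.772 CPM. Its exons share 1906 bases with DIMT1 on the opposite strand. For every overlap named here, reads may be shared if strand was not used in counting. Per kilobase, KIF2C was 4.27 ± 0.0569 times the level of KIF2A in NT, 6.84 ± 0.473 times with ATRA, 0.546 ± 0.0734 times with CDK4/6i and 0.319 ± 0.048 times with both drugs.

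The cilium kinesins were low throughout. KIF7, a regulator of Hedgehog signalling at the tip of the cilium, held 93 counts over the NT libraries, 113 with ATRA, 5 with CDK4/6i and 2 with both drugs. The ratio to NT was 0.0513 with CDK4/6i (95% interval 0.0163 to 0.124) and 0.0316 with both drugs (95% interval 0.00377 to 0.118), where the intervals cover counting error only. KIF7 was called lower in both (adjusted p = 3.06e-09 and 8.39e-09). Reads may be shared with TICRR over 91 bases if strand was not used in counting, and their part was not tested. KIF9, a motor of motile cilia, was called lower with ATRA (-0.89 ± 0.14, adjusted p = 1.32e-07) and with both drugs (-0.74). KIF27, a relative of KIF7, went from 3.65 ± 0.941 to 1.83 ± 0.807 CPM with both drugs (adjusted p = 0.00077). With ATRA KIF27 was not called (-0.34), but was without NT replicate 3 (-0.55, adjusted p = 0.0381).

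The genes that work with each class were measured as well. All 10 listed partners of mitotic kinesins were called lower with CDK4/6i and with both drugs, with medians of -2.42 and -5.06, where 27.9% and 40.7% of all tested genes were lower. With ATRA 7 of 10 were called higher (median 0.25), where 32.1% of all tested genes were. The largest falls with both drugs were those of BIRC5 (-5.69), HMMR (-5.49) and AURKB (-5.48). BIRC5 and AURKB belong to the chromosomal passenger complex that KIF20A carries, and HMMR binds spindle microtubules. RACGAP1, which joins KIF23 in centralspindlin, fell by 4.29 with both drugs, where KIF23 fell by 1.88. Of 4 kinesins whose symbols fall outside the name rule, the centromere motor CENPE fell by 4.32 with both drugs, whereas KIFC3 rose by 3.45. KIFC1, which clusters spindle poles, held 32 counts over the NT libraries and 1 with both drugs, a ratio of 0.046 (95% interval 0.00113 to 0.275), and was called lower (adjusted p = 9.57e-05).

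The partners of the transport kinesins were not uniform. With both drugs, 8 of the 14 tested rose and 1 fell, where 41% of all tested genes rose and 40.7% fell, at a median of 0.47. The rises included those of BICDL1 (4.13) and the scaffold MAPK8IP3 (1.97), and the fall was that of the mitochondrial adaptor TRAK1 (-0.25). The light chains of the KIF5B motor moved little next to the heavy chain, with log2 fold changes of 0.22 for KLC1, 0.16 for KLC2 (not called) and 0.27 for KLC4 (not called). Among 24 genes of cytoplasmic dynein, the motor that runs opposite to most kinesins, and of its cofactor dynactin, 19 rose and 4 fell with both drugs, beside the same 41% and 40.7% of all tested genes, at a median of 0.42. The largest rises were those of DYNLT3 (2.44), DYNLT1 (1.39) and NDE1 (1.19), and the largest falls those of ACTR1B (-0.82), the light intermediate chain gene DYNC1LI2 (-0.64) and DYNLL2 (-0.50).

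Whether the drugs acted independently on a gene was tested as the interaction, the effect of both drugs on the log2 scale minus the added effects of each. It was called negative for all 11 tested mitotic kinesins and positive for 0, where 27% of all tested genes were negative and 24.5% positive, and by library size alone the share of positive calls would be 18.5% in place of 47.5%. The median over the mitotic kinesins was -2.18 against -0.02 over all tested genes. It was largest for KIF18A (-3.44 ± 0.26), whose level was 19.3 ± 0.363 CPM in NT, 27.1 ± 2.22 with ATRA, 4.97 ± 0.397 with CDK4/6i and 0.638 ± 0.157 with both. KIF14 (-3.00), KIF15 (-2.99) and KIF20B (-2.99) followed, and KIF23 (-0.98 ± 0.08, adjusted p = 1.52e-14) was smallest. ATRA alone raised KIF18A, KIF14 and KIF23, and all were lower with ATRA on top of CDK4/6i than with CDK4/6i alone. Among 11 transport kinesins, 5 were called positive and 3 negative, with a median of 0.21 that turned to -0.10 by library size alone. This median was 0.12 without CDK4/6i replicate 2, and 0.13, 0.13 and 0.10 without CDK4/6i+ATRA replicate 1, 2 and 3. It was 0.13 without a filter, 0.33 with at least 10 counts in every library and 0.43 without KIF17, KIF21A and KIF21B. The positive ones were KIF3B (0.77 ± 0.08), KIF1C (0.59), KIF1B (0.48), KIF13B (0.43) and KIF5B (0.21), of which KIF1B (0.16) and KIF13B (0.12) lost the call and KIF5B turned to -0.10 by library size alone. Without a filter KIF5B (0.13) and KIF13B (0.35) lost it. KIF13B also lost it with DESeq2 in place of edgeR (0.41) and without NT replicate 1 (0.34), ATRA replicate 3 (0.39), CDK4/6i replicate 3 (0.39) or CDK4/6i+ATRA replicate 2 (0.39). The negative ones were KIF5C (-1.59), KIF21A (-1.16) and KIF21B (-0.77). KIF5C lost the call without NT replicate 1 (-1.48), ATRA replicate 3 (-0.95), CDK4/6i replicate 2 (-1.49), CDK4/6i+ATRA replicate 2 (-1.49) or CDK4/6i+ATRA replicate 3 (-1.33). KIF3A was not called (-0.28), but was by library size alone (-0.60, adjusted p = 0.0132). For KIF3C the interaction was 0.03 (95% interval -0.34 to 0.40).

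**Figure D5:**
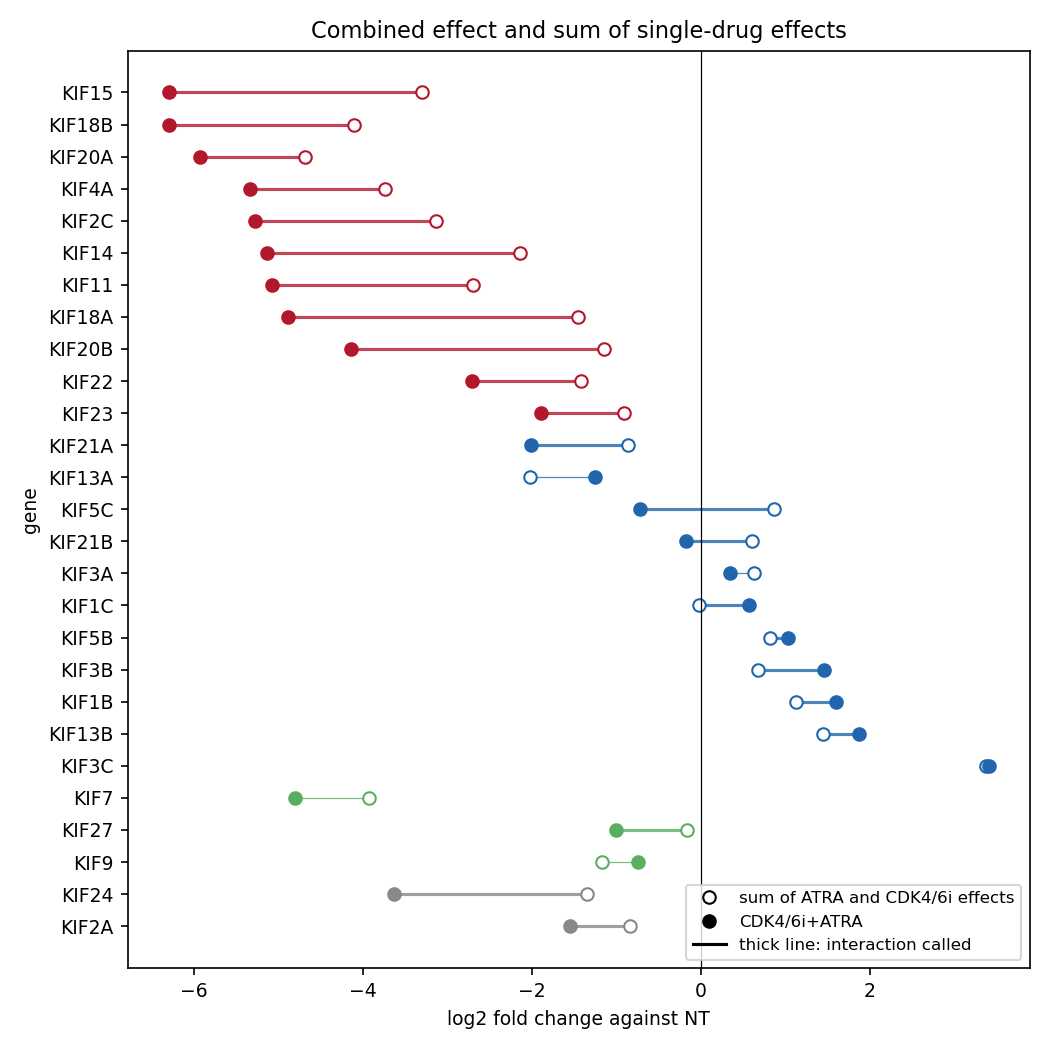
Log2 fold change against NT with both drugs (filled) and the sum of the values for ATRA and CDK4/6i (open), joined by a line for each of 27 kinesin genes. Thick lines mark genes whose interaction has an adjusted p under 0.05, and colours give the class as in the plot of fold changes. For all 11 mitotic genes the filled point lies left of the open one, by 0.98 to 3.44, and for KIF3C the points nearly coincide.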

How the data were processed

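RNA-Seq of HL60 cells gave 12 libraries in 4 groups. The authors trimmed reads with Trimmomatic 0.33, aligned them to hg38 with STAR 2.7.11a under the NCBI RefSeq annotation and deposited whole-number counts per gene, without normalization. The layout is that of featureCounts, whereas the paper names RSEM. The libraries were directional, and the strand setting of the counting is not given in the sources used here. The deposited exon lengths and positions were used for levels per kilobase. Of 4379 genes listed both on a primary chromosome and on other contigs, 65.9% had no count, against 51% of 54097 genes listed on primary chromosomes only.

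The members, classes and gene lists were chosen with earlier results of these data known. Members described in full were at most the 6 largest rises and falls past the threshold with at least 1 CPM in a group, plus KIF11, KIF20A, KIF23, KIF5B, KIF1B and KIF3B, and other members are given by level, and partner lists by counts and the 3 largest changes in each direction. Further genes named were chosen after their values were seen. Genes were filtered with filterByExpr (minimum count 10 on the 4 groups, 13318 kept), scaled by TMM and fitted by group in edgeR 4.0.16 (R 4.3.3) with the quasi-likelihood F test, two-sided, 8 residual degrees of freedom and Benjamini-Hochberg adjustment over all tested genes. CPM uses the TMM-scaled library size. Intervals of single ratios are exact for counts and, like the floor of 3 counts, cover counting error only, since PCR copies of a molecule were not removed by identifiers. Libraries of a group differed by more than sampling noise (chi-square per degree of freedom 1.83 to 6.49). The scripts were tested on simulated data. Alternatives were DESeq2 1.42.0, other scalings and filters, a replicate block, only the groups compared, other classes and leaving out each library. Promoters came from the RefSeq table of GRCh38.p14, and matplotlib 3.10.9 drew the figures. ChIP-Seq data were not used here. The values of 1 gene on the list of transport kinesin partners are not reported here, although the gene is in that list's counts.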

Additional observations from a re-analysis of the deposited data

Results flagged for a closer look

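The effect of ATRA differed between cells without and with CDK4/6i for 22 of the 27 tested kinesin genes, by the interaction term of the edgeR fit, which was positive for 24.5% and negative for 27% of all tested genes. Groups of 3 libraries are too small for the outlier test. The departures from additivity were negative, on the log2 scale, for KIF18A (-3.44), KIF14 (-3.00), KIF15 (-2.99), KIF20B (-2.99), KIF11 (-2.38), KIF24 (-2.29), KIF18B (-2.18), KIF2C (-2.14), KIF4A (-1.59), KIF5C (-1.59), KIF22 (-1.29), KIF20A (-1.24), KIF21A (-1.16), KIF23 (-0.98), KIF27 (-0.83), KIF21B (-0.77) and KIF2A (-0.71). They were positive for KIF3B (0.77), KIF1C (0.59), KIF1B (0.48), KIF13B (0.43) and KIF5B (0.21). The adjusted p ranged from 8.69e-29 for KIF20B to 0.0427 for KIF27, and the calls of KIF27, KIF5C and KIF13B each depended on single libraries. That of KIF27 was lost without NT replicate 3, ATRA replicate 1 or 2, CDK4/6i replicate 1, or CDK4/6i+ATRA replicate 2 or 3, with values from -0.82 to -0.61, and with DESeq2 in place of edgeR (-0.85).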

How the results depend on the processing

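The replicate numbers did not pair the libraries. The deviations of same-numbered libraries from their group means had correlations of -0.114 to 0.0702 over 18 pairs, 0 of them over 0.1, and adding the replicate block changed 0 of the 162 calls on single kinesins.

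The medians and counts of calls moved as follows. By library size alone, the mitotic median became -5.40 (CDK4/6i+ATRA against NT), -2.22 (against CDK4/6i), -5.88 (against ATRA) and -2.50 (interaction), the transport median 0.31, 0.39, 0.035 and -0.10, and the transport calls 3 higher and 4 lower against ATRA and 2 positive in the interaction. With at least 10 counts in every library, 7 mitotic and 8 transport kinesins were left. All 7 were then called lower with CDK4/6i (median -2.80), with both drugs against NT and ATRA, and in the interaction, and 0 transport kinesins were lower with ATRA (median 0.75), 1 with both drugs against NT (1.28), 2 against CDK4/6i (1.16), 1 against ATRA and 1 in the interaction (0.33). Without a filter, the mitotic median with ATRA was 0.34, the transport medians 0.24 against NT and -0.27 against CDK4/6i, over 13 genes, and 3 were positive in the interaction. Fitting only the groups compared gave 0.86 against CDK4/6i and 0.20 against ATRA. With KIF2A and KIF24 counted as mitotic, the median was 0.24 with ATRA, with 1 called lower, and -2.81 with CDK4/6i. Without KIF17, KIF21A and KIF21B, the transport calls lower were 1 with ATRA, 1, 3 and 0 for both drugs against NT, CDK4/6i and ATRA, and 1 in the interaction, with medians of 1.03 against NT, 1.05 against CDK4/6i and 0.43 in the interaction. Leaving out 1 library at a time, the mitotic median ranged from -2.00 to -1.83 against CDK4/6i and from -2.38 to -2.06 in the interaction, and the transport median from 0.23 to 0.72 against CDK4/6i from 0.40 to 0.61 against NT, from -0.03 to 0.16 for CDK4/6i against NT and from 0.10 to 0.23 in the interaction. Size factors of DESeq2, DESeq2 in place of edgeR and the replicate block left each median within 1 SD and each count within 1.5 times. The cause of these shifts was not tested, except that the filters and class changes alter which genes are counted.

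Single kinesins changed sign with a call in 3 of 2994 comparisons with an alternative, all by library size alone, namely KIF3C (-0.20) and KIF5B (-0.11) for both drugs against ATRA and KIF5B (-0.10) in the interaction. A further 31 changed sign without being called on either side. Leaving out a library ended 34 calls and added 5 of 1944, the losses on KIF3A, KIF5C, KIF13A, KIF13B and KIF27 and the gains on KIF13B, KIF20B, KIF24 and KIF27. The depth puts 3 counts at 0.156 to 0.275 CPM, and levels below this cannot be told from 0.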
